A study of Homo sapiens with 6 samples.

Results

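Tissue factor, thrombospondin-1 and the plasminogen activators are handled here as a set of 9 genes: F3, THBS1, TFPI, TFPI2, THBD, PLAU, PLAUR, PLAT and SERPINB2. They were matched by gene symbol to the Ensembl identifiers of the deposited expression table, where all 9 were found among 58735 genes. The RNA came from HOK-16B, an oral keratinocyte line immortalized with human papillomavirus DNA. Each of the 6 libraries was made from total RNA and sequenced in paired-end mode. According to the series text, every culture was stimulated to inflammation. Before that, the cells of 3 libraries had been given cannabidiol (CBD), a compound of the cannabis plant, and those of the other 3 the vehicle excipient alone. Stimulus, dose and duration are not given in the labels, and no unstimulated cells were analysed here. As a model the material is limited to 1 line. The cell line tag names HOK-16B for every sample, while the free-text description gives each sample another line number. Whether replicates were separate cultures is not stated, so the reported errors and p-values cover only the spread between these libraries, which may be technical.

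Tissue factor is a membrane protein that binds factor VII and starts the clotting cascade that ends in thrombin and fibrin. Fibrin and matrix proteins are cleared by plasmin, which the urokinase-type and tissue-type activators release from plasminogen, and serpins and Kunitz-type inhibitors restrain these proteases. In stratified epithelium, tissue factor coats the keratinocytes that border a wound, and urokinase, its receptor and thrombospondin-1 are associated with keratinocyte migration during wound closure.

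Levels are given as FPKM (fragments per kilobase of exon, scaled to the library total), so that genes of different length can be set side by side. The length merges all annotated exons of a gene. A gene whose transcripts use only part of them therefore reads too low beside others. The libraries held 18213784 to 22158614 fragments in genes, and 3 fragments of a gene with 1 kb of exon correspond to 0.126 to 0.153 FPKM, a limit that covers counting error only. All 10 keratinocyte markers were detected at a mean of at least 1 FPKM, with summed levels of 10218 to 11998 FPKM in vehicle and 12517 to 13091 FPKM in CBD libraries. KRT5, KRT14 and KRT17 held most of that sum, at means of 3330, 3181 and 2693 FPKM. KRT5, KRT14, SFN and ITGB4 were higher in every CBD library, and KRT6A was lower in every CBD library. The groups overlapped for KRT17, TP63, DSG3, DSC3 and PERP. The 8 endothelial markers summed to 0.230 to 0.343 FPKM in vehicle and 0.191 to 0.344 FPKM in CBD libraries, none reaching a mean of 1 FPKM. Of 8 monocyte and macrophage markers, TYROBP and AIF1 were at 0 in every library and 2 reached 1 FPKM (CD14 and CSF1R), with sums of 3.52 to 4.59 and 4.03 to 5.19 FPKM. PF4, PPBP and GP9 of the 6 platelet markers were at 0 in every library, with sums of 1.29 to 1.86 FPKM in vehicle and 1.75 to 1.99 FPKM in CBD. The 7 fibroblast markers summed to 6.94 to 7.70 FPKM in vehicle and 8.94 to 8.99 FPKM in CBD, nearly all of it from COL1A1, while PDGFRA was at 0. The part of these shifts in the results below was not tested.

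The 9 genes were chosen by name with the FPKM difference of CBD against vehicle already known, since F3 and THBS1 were among the called genes. Their differences between the groups are therefore a description and support nothing further. In that contrast 6 of the 9 had a mean of at least 1 FPKM over all libraries and entered the fit with limma on log2(FPKM + 1). The added 1 shrinks a log2 difference more the lower a gene lies, so sizes of low and abundant genes are not directly comparable. Of these 6, F3 and THBS1 were lower with CBD at an adjusted p under 0.05, against 0.0959% of the 12517 tested genes called lower. In 3 of the 6, F3, THBS1 and TFPI2, every CBD library lay below every vehicle library, a pattern found in 21.9% of the tested genes. The other 3 tested genes, THBD, PLAU and PLAUR, had overlapping groups. In bulk RNA, fewer cells of a type and less RNA per cell cannot be told apart. The median difference over the 6 was -0.18 on the log2 scale, beside -0.01 over all tested genes.

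**Figure D1:**
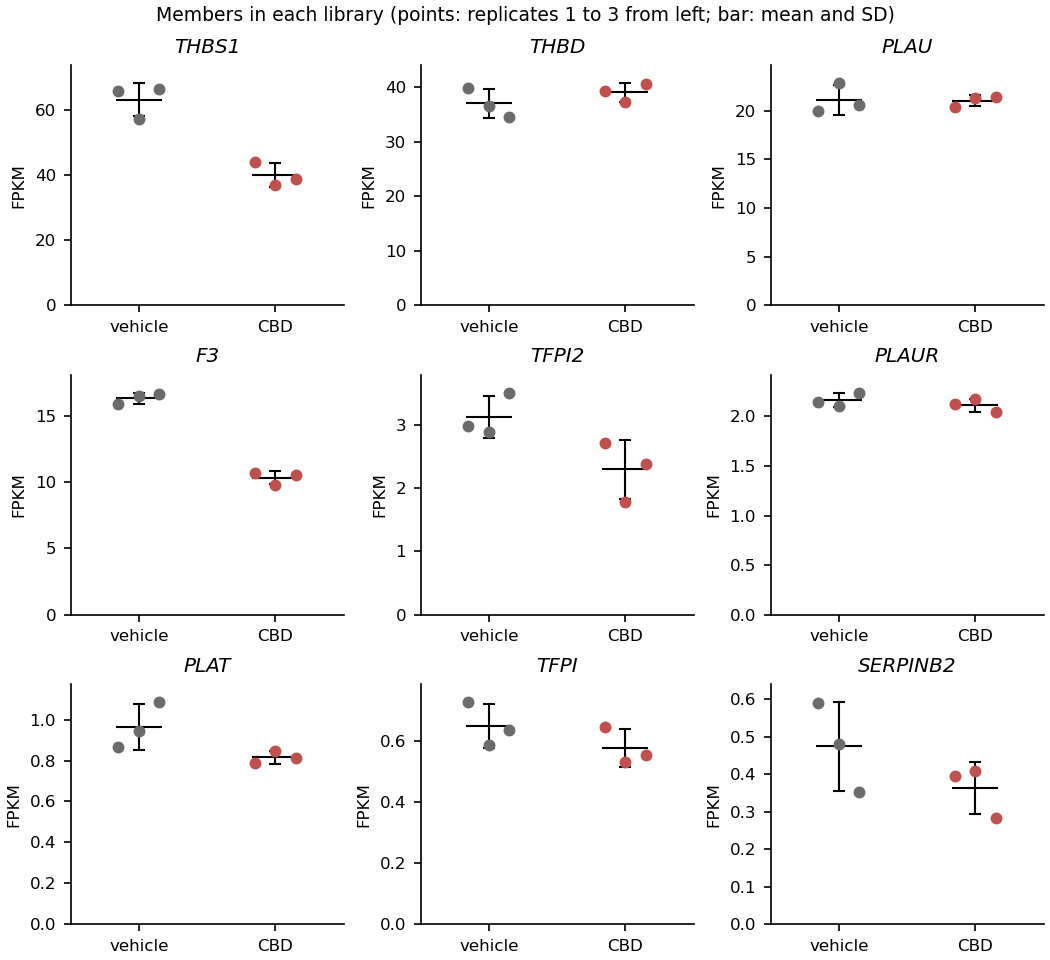
FPKM of each of the 9 genes in the 3 vehicle (grey) and 3 CBD (red) libraries, with black bars for the mean and SD and all axes starting at 0. The groups are apart for F3 and THBS1 and, by a narrow margin, for TFPI2 and PLAT. They lie on top of each other for PLAU and PLAUR.

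F3 encodes tissue factor itself. It had 15.9, 16.5 and 16.7 FPKM in vehicle replicates 1 to 3 and 10.7, 9.78 and 10.5 FPKM in CBD replicates 1 to 3. Each CBD library was thus below each vehicle library, and the spread within a group was small, with coefficients of variation of 2.57% in vehicle and 4.70% in CBD. These levels rested on 942 to 1044 fragments per vehicle library and 624 to 734 per CBD library. The means were 16.4 ± 0.420 and 10.3 ± 0.486 FPKM (SD, n = 3), which is 36.8% lower with CBD, and the fitted difference was -0.62 ± 0.05 (SE) on the log2(FPKM + 1) scale. F3 lies on chromosome 1 (94529225 to 94541800, minus strand, GENCODE 29 gene span on GRCh38) and overlaps no other annotated gene. The F3 call ended when vehicle replicate 3 or any single CBD library was left out, while its difference stayed between -0.66 and -0.53 over 17 alternative settings.

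The bases upstream of F3 are shown because this stretch is known as the place where inflammatory stimuli act on the gene through AP-1 and NF-kB. RefSeq (GRCh38.p14) gives chr1:94541801-94542009 on the minus strand, up to the base before the GENCODE gene span, which begins 41 bases before the RefSeq start. Capitals mark matches to the AP-1 motif TGANTCA, to an NF-kB-like motif GGNNTTTCC and to the EGR1 motif GCGNGGGCG, searched on both strands.
F3 upstream: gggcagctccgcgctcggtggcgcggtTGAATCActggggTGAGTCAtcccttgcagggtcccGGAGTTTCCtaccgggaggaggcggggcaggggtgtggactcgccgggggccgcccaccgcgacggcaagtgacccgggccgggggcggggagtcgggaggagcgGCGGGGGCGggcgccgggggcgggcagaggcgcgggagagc

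The AP-1 matches of F3 begin 223 and 210 bases before the RefSeq start, the NF-kB-like match 187 bases and the EGR1 match 82 bases before it. Among 35116 RefSeq promoter windows of 300 bases (250 before and 50 after a start), 7.71% hold an AP-1 match, 6.26% an NF-kB-like match and 9.43% an EGR1 match. F3 also holds 4 matches to the SP1 motif GGGCGG, found in 45.0% of windows, of which 1 overlaps the EGR1 match, and a TATAAA match 28 bases before the start on the opposite strand, found in 11.5% of windows. A match is a run of letters and not a measured binding site.

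THBS1 encodes thrombospondin-1, a secreted matrix protein that binds CD36, CD47 and integrins and activates latent TGF-beta. It had 65.7, 57.2 and 66.3 FPKM in vehicle replicates 1 to 3 and 44.0, 36.9 and 38.8 FPKM in CBD replicates 1 to 3. The groups did not overlap, although vehicle replicate 2 stood below the other vehicle libraries and CBD replicate 1 above the other CBD libraries. Between 7325 and 13750 fragments per library supported these levels. The means were 63.1 ± 5.11 and 39.9 ± 3.70 FPKM (SD, n = 3), 36.7% lower with CBD, with a fitted difference of -0.65 ± 0.09 (SE) on the log2(FPKM + 1) scale. THBS1 was the most abundant of the 9 genes and ranked 648 among the 12517 tested genes by mean FPKM. Its call ended without vehicle replicate 1, vehicle replicate 3 or any single CBD library, and its difference ranged from -0.72 to -0.59 over 17 alternatives.

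THBS1 lies on chromosome 15 (39581079 to 39599466, plus strand). FSIP1 and THBS1-AS1 on the opposite strand share 448 and 411 bases of its exons, 4.89% and 4.49% of their length. FSIP1 had a mean of 0.253 FPKM and THBS1-AS1 was at 0 in every library. Inside a THBS1 intron, the same-strand transcript THBS1-IT1 had 3.46, 1.49 and 2.85 FPKM in vehicle replicates 1 to 3 and 1.54, 1.65 and 1.79 FPKM in CBD replicates 1 to 3. Its groups overlapped through vehicle replicate 2, which was also the lowest vehicle library for THBS1. The strand setting of the counting is not given in the sources used here, so reads of overlapping genes cannot be told apart.

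The window before the THBS1 start, chr15:39580829-39581078 on the plus strand, is shown for comparison with that of F3. Capitals mark an EGR1 match and, on the opposite strand, a CCAAT match.
THBS1 upstream: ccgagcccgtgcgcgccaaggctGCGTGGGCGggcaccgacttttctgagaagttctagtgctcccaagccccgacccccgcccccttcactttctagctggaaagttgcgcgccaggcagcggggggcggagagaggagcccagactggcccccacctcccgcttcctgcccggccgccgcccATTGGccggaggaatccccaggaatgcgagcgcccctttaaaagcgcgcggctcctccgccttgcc

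No AP-1 or NF-kB-like match stood in the 300 bases around the THBS1 start, which says only that these letters are not in this window. The EGR1 match begins 227 bases and the CCAAT match, a motif found in 34.6% of windows, 66 bases before the start. THBS1 shares with F3 the EGR1 match and 4 SP1 matches, 1 of them overlapping the EGR1 match in each gene.

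Of the 2 genes named for tissue factor pathway inhibitors, TFPI encodes the one that mainly blocks the complex of tissue factor and its clotting factor. TFPI2, a Kunitz-type inhibitor of plasmin and other matrix-degrading proteases, had 2.99, 2.89 and 3.52 FPKM in vehicle replicates 1 to 3 and 2.72, 1.79 and 2.39 FPKM in CBD replicates 1 to 3. All CBD libraries were lower, but the highest of them was close to the lowest vehicle library. The means were 3.13 ± 0.338 and 2.30 ± 0.472 FPKM (SD, n = 3), 26.6% lower with CBD. The difference of -0.33 (95% interval -0.61 to -0.05) was not called, and with a pseudocount of 0.1 it was -0.44, also not called. It rested on 111 to 185 fragments per library, and CBD replicate 2 was the lowest library for TFPI2, F3 and THBS1. TFPI, the main plasma inhibitor of the tissue factor complex, fell short of the level needed for testing. It had 0.729, 0.587 and 0.635 FPKM in vehicle replicates 1 to 3 and 0.648, 0.531 and 0.554 FPKM in CBD replicates 1 to 3. Its groups overlapped, with 134 to 195 fragments per library over 11714 bases of exon. Without the filter on low values the TFPI difference was -0.06 (95% interval -0.27 to 0.14), with a mean FPKM 11.2% lower with CBD. F3 stood at 16.4 FPKM beside 0.650 FPKM for TFPI in vehicle libraries, and at 10.3 beside 0.578 FPKM in CBD libraries. The size of that gap depends on the merged exon lengths, 2875 bases for F3 and 11714 for TFPI.

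Thrombomodulin, encoded by THBD, sits on the cell surface and turns thrombin toward the activation of protein C. It had 39.8, 36.6 and 34.6 FPKM in vehicle replicates 1 to 3 and 39.3, 37.2 and 40.6 FPKM in CBD replicates 1 to 3. The groups overlapped, and the difference of 0.08 (95% interval -0.08 to 0.23) was not called. THBD was the second most abundant of the 9 genes, with 2788 to 3853 fragments per library. THBD is often used as an endothelial gene, and the endothelial markers PECAM1 and CDH5 had means of 0.0766 and 0.00140 FPKM here.

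PLAU encodes urokinase, the activator that acts at the cell surface, and PLAUR the receptor that holds it there. PLAU had 20.0, 22.8 and 20.5 FPKM in vehicle replicates 1 to 3 and 20.4, 21.3 and 21.4 FPKM in CBD replicates 1 to 3. The difference was -0.0041 (95% interval -0.15 to 0.14), and the highest of the 6 libraries was 1.14 times the lowest. C10orf55 on the opposite strand covers 31.1% of the PLAU exons and had a mean of 0.450 FPKM. PLAUR had 2.15, 2.11 and 2.24 FPKM in vehicle replicates 1 to 3 and 2.13, 2.17 and 2.04 FPKM in CBD replicates 1 to 3. Its difference was -0.02 (95% interval -0.17 to 0.13). Neither urokinase gene was called. Their intervals do not include the differences fitted for F3 and THBS1, which were known when the set was chosen, so this is no test between genes.

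PLAT, the tissue-type plasminogen activator gene, was below the level tested. It had 0.866, 0.943 and 1.09 FPKM in vehicle replicates 1 to 3 and 0.785, 0.849 and 0.813 FPKM in CBD replicates 1 to 3, from 111 to 141 fragments per library. Every CBD library was below every vehicle library by a narrow margin, and the difference without the filter was -0.11 (95% interval -0.33 to 0.11). The PLAT mean was 15.5% lower with CBD. SERPINB2 encodes plasminogen activator inhibitor type 2, a serpin abundant in differentiated keratinocytes. It was the lowest of the 9 genes, at 0.589, 0.481 and 0.352 FPKM in vehicle replicates 1 to 3 and 0.397, 0.409 and 0.282 FPKM in CBD replicates 1 to 3. With 16 to 37 fragments per library its groups overlapped, and the difference without the filter was -0.11 (95% interval -0.33 to 0.11). The SERPINB2 mean was 23.5% lower with CBD. At these levels the added 1 FPKM shrinks the log2 differences of PLAT and SERPINB2 strongly. SERPINB10 shares 547 bases, 19.9% of the SERPINB2 exons, on the same strand.

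By mean FPKM the order was THBS1, THBD, PLAU, F3, TFPI2, PLAUR, PLAT, TFPI and SERPINB2. In vehicle libraries the range of each gene lay above that of the next, except that the lowest TFPI value (0.587 FPKM) was just under the highest SERPINB2 value (0.589 FPKM). In CBD libraries the levels of THBS1 (36.9 to 44.0 FPKM) overlapped those of THBD (37.2 to 40.6 FPKM), and those of TFPI2 (1.79 to 2.72 FPKM) overlapped those of PLAUR (2.04 to 2.17 FPKM). All other neighbours kept apart.

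AP-1 matches were also looked for around the starts of the other genes, and 7 of the 9 had a window in the RefSeq table. They are shown with 10 bases on each side, capitals marking the match, so that their letters can be compared. In TFPI2 the match begins 87 bases before the RefSeq start (chr7:93890824-93890850, minus strand), in SERPINB2 102 bases (chr18:63887593-63887619, plus strand) and in PLAUR 186 bases before it (chr19:43670339-43670365, minus strand).
F3, first match: gtggcgcggtTGAATCActggggtgag
F3, second match: atcactggggTGAGTCAtcccttgcag
TFPI2: tccccgtgcaTGAATCAgccacccctc
SERPINB2: agtaaaatgtTGAATCActcaaaggac
PLAUR: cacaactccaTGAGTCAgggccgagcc

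The second F3 match and the PLAUR match share the same 7 letters, and so do the first F3 match and those of TFPI2 and SERPINB2. PLAUR and TFPI2 also hold an EGR1 match. PLAU, with 2 RefSeq starts, and TFPI held neither motif.

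**Figure D2:**
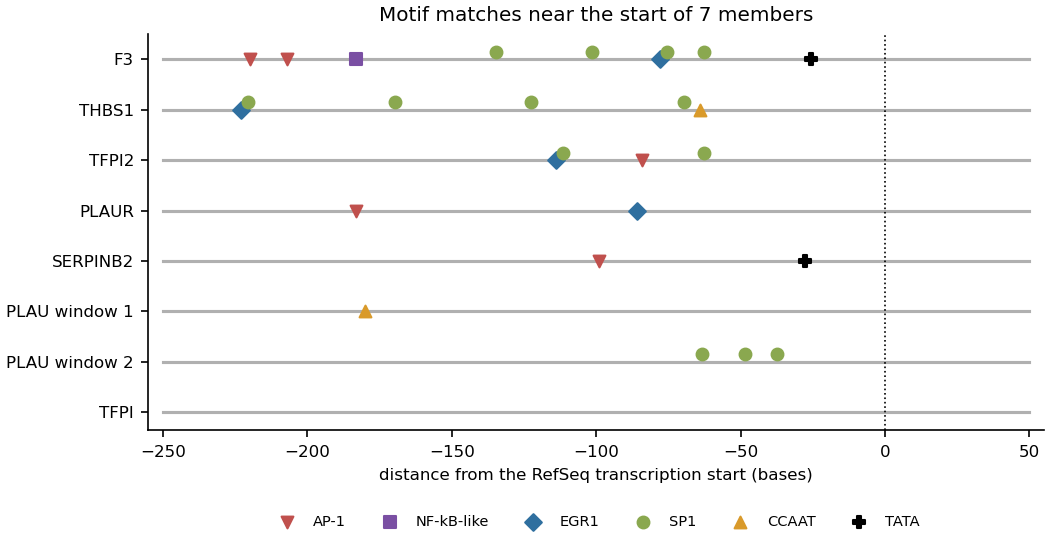
Positions of 6 motifs in windows from 250 bases before to 50 bases after the RefSeq starts of 7 genes (PLAU has 2 windows), by distance from the start in bases. F3 carries 2 AP-1 matches and the only NF-kB-like match, and TFPI carries none of the motifs.

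The libraries also differed in base composition along with the groups. Mean GC content per counted fragment was 49.6% to 50.3% in vehicle and 50.7% to 50.8% in CBD libraries, and the median difference of tested genes went from -0.17 in the GC-poorest of 10 equal bins to 0.24 in the GC-richest. F3 transcripts have a GC content of 44.7%, and the bin of genes around that value had a median difference of -0.09 against -0.62 for F3. For THBS1, at 47.7% GC, that median was -0.05 against -0.65. With the GC trend removed from each library, F3 stood at -0.53 and was still called, THBS1 at -0.61 and TFPI2 at -0.23, both not called. THBD, PLAU and PLAUR, at 54.8%, 54.0% and 55.9% GC, then stood at -0.00050, -0.07 and -0.12.

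**Figure D3:**
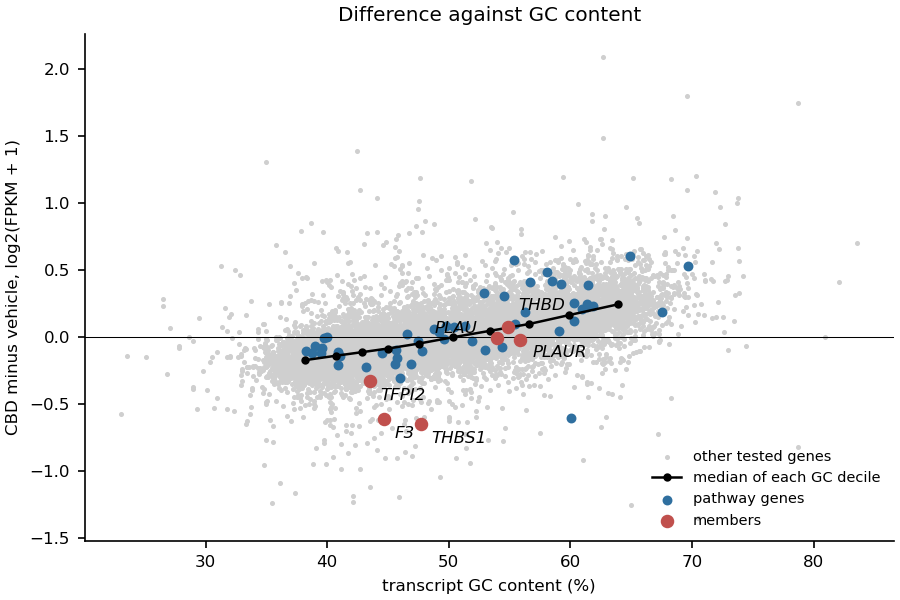
Difference of CBD minus vehicle in log2(FPKM + 1) against transcript GC content in percent for the 12517 tested genes (grey; 7 lack a GC value), with pathway genes in blue, the 6 tested genes of the set in red and the median of each of 10 bins by GC content in black. F3 at -0.62 and THBS1 at -0.65 lie well below the black line, and THBD, PLAU and PLAUR lie near it.

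**Figure D4:**
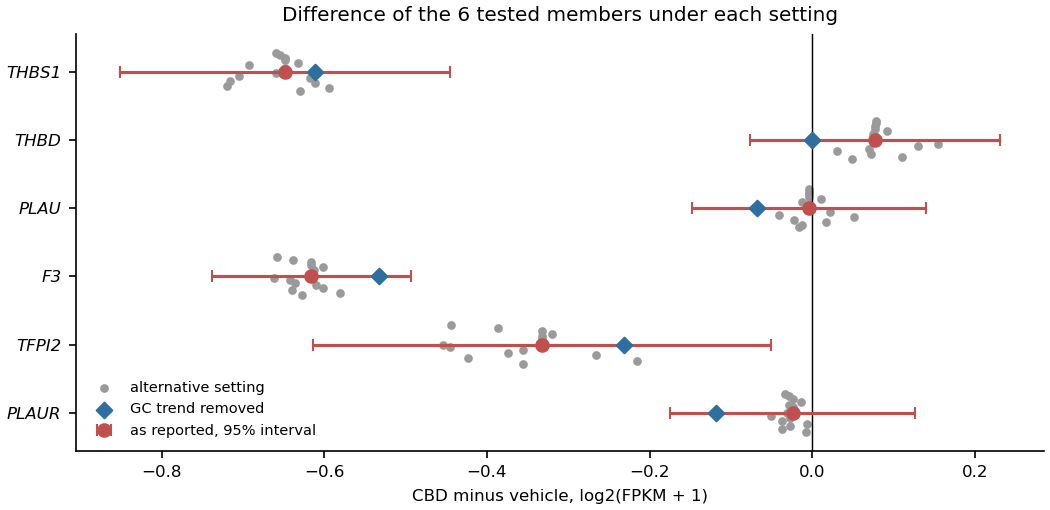
Difference of CBD minus vehicle in log2(FPKM + 1) for the 6 tested genes, as reported (red, with its 95% interval), with the GC trend removed (blue) and under the other alternative settings (grey). F3 and THBS1 stay below -0.5 in each, and PLAU lies on both sides of 0.

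The genes whose levels moved most like those of F3 and THBS1 over the 6 libraries were found by the mean absolute distance between log2(FPKM + 1) profiles, each centred on its own mean, over 10674 other protein-coding genes. The 5 nearest to F3 were FOSL1 (distance 0.0518), DDX21 (0.0613), HSPA8 (0.0823), THBS1 (0.0865) and TNFRSF8 (0.0865). The 5 nearest to THBS1 were DDX21 (0.0599), HSPA8 (0.0814), FOSL1 (0.0860), F3 (0.0865) and FGFBP1 (0.0873). F3 and THBS1 thus stood at rank 4 on each other's list, while TFPI2 ranked 112 and 129, at distances of 0.148 and 0.158. PLAU, PLAUR and THBD, at 0.296 to 0.363, were about as far as the median gene, which was 0.316 from THBS1. Because group membership dominates these profiles, the likeness mainly repeats the difference between the groups.

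Around the 9 genes, 81 others of the same systems were drawn from 6 lists, and 50 of them were abundant enough to be tested. LRP1 and JUND rose and FOSL1 fell, 3 of 50 by limma, where 0.352% of all tested genes were called in either direction. Limma-voom on recovered reads, run without removal of the GC trend, called 18 of the 50, where it called 13.9% of all tested genes. Their median difference was 0.03, beside -0.01 over all tested genes. In the limma fit 21 of the 50 had an unadjusted p under 0.05, as did 3926 of all 12517 tested genes. The counts of unadjusted p per list below are to be read beside that share. These lists were also compiled with earlier results of the data known.

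Most clotting factor genes were too low to test. Of 20 listed, 16 were below the level tested, and F5, F7, F9, F13A1, FGA and FGB had no fragment in any library. Of the 4 tested genes limma called 0, while 1 had an unadjusted p under 0.05 and limma-voom called 1. MCFD2 and LMAN1, which form the cargo receptor for clotting factors V and VIII, had 19.8 ± 1.02 and 17.1 ± 0.295 FPKM (SD, n = 3, vehicle and CBD; limma adjusted p = 0.0763) and 32.8 ± 2.19 and 30.8 ± 0.277 FPKM (0.341). F12, the contact-activation factor, had 3.56 ± 0.748 and 4.16 ± 0.158 FPKM (0.278).

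Of 8 anticoagulant genes 4 were tested and 0 called by limma, with 2 at an unadjusted p under 0.05 and 1 called by limma-voom. SERPINE2, a serpin that inhibits thrombin and urokinase, had 2.04 ± 0.196 and 1.45 ± 0.0898 FPKM (limma adjusted p = 0.0764). ANXA5, a phospholipid-binding protein, had 91.9 ± 6.58 and 82.2 ± 2.60 FPKM (0.15), and PROCR, the protein C receptor, 15.3 ± 2.39 and 14.2 ± 0.394 FPKM (0.540). The thrombin receptor gene F2R had 9.87 ± 0.797 and 10.01 ± 0.518 FPKM (0.861) and F2RL1, whose receptor is cleaved by the tissue factor complex, 14.8 ± 2.37 and 13.7 ± 0.647 FPKM (0.554). Of these 2 tested protease-activated receptors 0 were called, had an unadjusted p under 0.05 or were called by limma-voom.

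In the rest of the plasminogen system 9 of 14 genes were tested. LRP1, an endocytic receptor that clears complexes of urokinase with its inhibitors as well as thrombospondin-1, rose from 5.06 ± 0.267 to 6.97 ± 0.104 FPKM, with values of 5.20, 5.23 and 4.75 FPKM in vehicle replicates 1 to 3 and 6.99, 6.86 and 7.06 FPKM in CBD replicates 1 to 3. The groups did not overlap (difference 0.40 ± 0.05 SE; limma adjusted p = 0.0452, range over alternatives 0.00143 to 0.198). The GC content of LRP1 is 59.2%. Once the GC trend was removed it stood at 0.24 and was not called (limma adjusted p = 0.126). It overlaps STAT6 on the opposite strand, which had a mean of 21.8 FPKM. The other 8 were not called by limma, whereas limma-voom called 4 of the 9, LRP1, SERPINE2, SERPINF2 and ST14. With the GC trend removed, SERPINE2 went from -0.31 to -0.25, SERPINF2 from 0.39 to 0.20 and ST14 from 0.23 to 0.03, none called. SERPINF2, the plasmin inhibitor, had 5.62 ± 0.854 and 7.62 ± 0.196 FPKM (limma adjusted p = 0.0717), and ST14, a membrane protease that activates urokinase, 26.5 ± 1.98 and 31.2 ± 1.69 FPKM (0.0889). The plasminogen-binding surface proteins ENO1 and S100A10 had 344 ± 6.38 and 327 ± 7.52 FPKM (0.313) and 162 ± 17.6 and 171 ± 5.03 FPKM (0.526). Plasminogen itself, PLG, had no fragment in any library.

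Among 16 thrombospondin relatives and binding partners 12 were tested, and limma called 1, LRP1, which this list holds too. Limma-voom called 5 of the 12, among them LRP1, TGFB1, ITGB1 and ITGA6. With the GC trend removed, TGFB1 went from 0.23 to 0.03, ITGB1 from -0.21 to -0.08 and ITGA6 from -0.22 to -0.12, none called. TGFB1, whose latent protein thrombospondin-1 activates, had 19.2 ± 0.309 and 22.6 ± 0.874 FPKM (limma adjusted p = 0.0608). The integrin genes ITGB1 and ITGA6 had 126 ± 6.36 and 108 ± 0.786 FPKM (0.0716) and 108 ± 7.18 and 92.5 ± 1.87 FPKM (0.0787). CALR, a chaperone that also binds thrombospondin-1 at the cell surface, had 299 ± 16.2 and 319 ± 4.88 FPKM (0.268).

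All 21 listed transcription factors linked to the F3 or THBS1 promoters were tested. FOSL1, an AP-1 subunit of the FOS family, fell from 4.75, 5.12 and 4.94 FPKM in vehicle replicates 1 to 3 to 3.38, 2.70 and 2.65 FPKM in CBD replicates 1 to 3. The difference was -0.61 ± 0.08 (SE; limma adjusted p = 0.0470, range over alternatives 0.00189 to 0.198), and with the GC trend removed it was -0.78 and still called (limma adjusted p = 0.0454). JUND, an AP-1 subunit of the JUN family, rose from 36.7 ± 2.82 to 53.5 ± 1.93 FPKM (difference 0.53 ± 0.07 SE; limma adjusted p = 0.0452, range over alternatives 0.00124 to 0.325). The GC content of JUND is 69.7%, and once the trend was removed it stood at 0.17 and was not called. FOS, JUNB and EGR1, early response genes, had 59.7 ± 5.08 and 80.2 ± 3.92 FPKM (limma adjusted p = 0.0552), 97.1 ± 17.2 and 147 ± 6.23 FPKM (0.0584) and 32.3 ± 5.61 and 48.2 ± 1.90 FPKM (0.0604). None of these 3 was called by limma, and limma-voom called all 3, among 9 of the 21. Removing the GC trend took FOS from 0.42 to 0.28, JUNB from 0.61 to 0.34 and EGR1 from 0.58 to 0.49, none called. In each of the 3 every CBD library lay above every vehicle library, as in 18.7% of tested genes. The calls of LRP1, JUND and FOSL1 ended without vehicle replicate 3 or any single CBD library, and that of FOSL1 also without vehicle replicate 1.

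**Figure D5:**
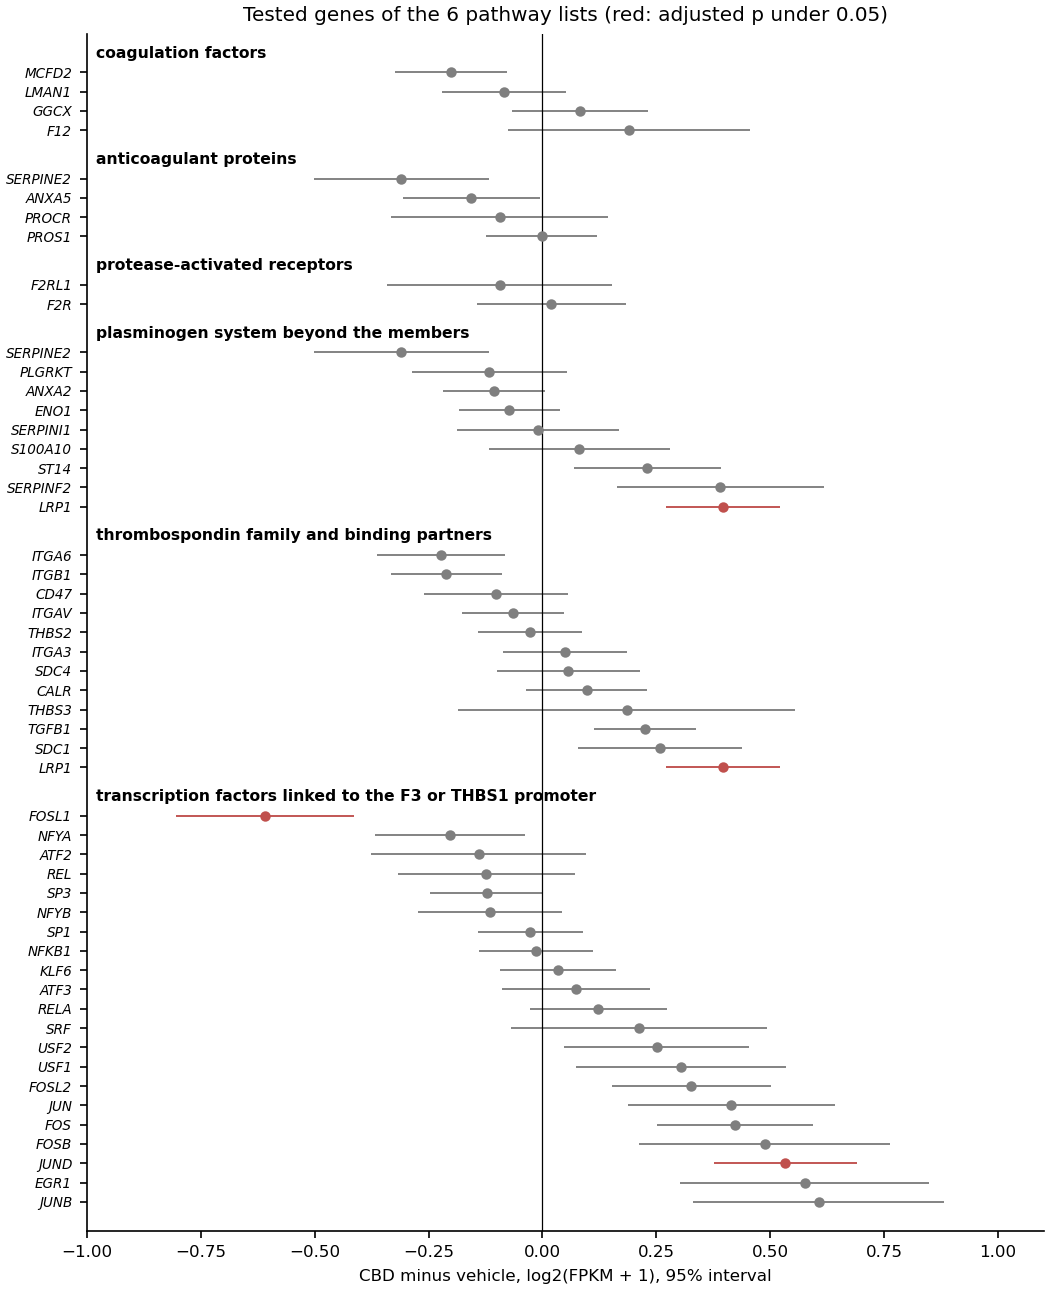
Difference of CBD minus vehicle in log2(FPKM + 1) with its 95% interval for the tested genes of the 6 lists, genes called at an adjusted p under 0.05 in red (LRP1 and SERPINE2 stand in 2 lists each). FOSL1 lies at -0.61, apart from the other AP-1 genes, and LRP1 lies at 0.40.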

How the data were processed

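Per the submitters' processing notes, HISAT2 2.0.5 and featureCounts 1.5.0-p3 were used. Genome build, annotation and strand setting are not given in the sources used here. Per the file headers, the authors deposited FPKM for each library, without pooling. All 58735 identifiers were found in GENCODE 29, and FPKM times exon length gave whole fragments in 100% of values (tolerance 0.01). Genes with a mean of at least 1 FPKM over the 6 libraries (12517) were fitted with limma 3.58.1 in R 4.3.3 on log2(FPKM + 1), group being the only term, with a trend in the variance prior, two-sided, Benjamini-Hochberg adjustment and a threshold of 0.05. The fit was tried on simulated counts without a GC trend, so that trial does not cover the GC shift between these libraries. GC content is the length-weighted mean over annotated transcripts, and its trend was removed by loess (span 0.3). Python 3.11.15, pandas 2.3.3, numpy 2.4.6 and matplotlib 3.10.9 made tables and plots.

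Members, lists, alternatives and the rule for named genes were chosen with earlier results of these data known. The rule names all 9 members, each called list gene, up to 3 more by adjusted p and up to 2 by level per list, and the 5 genes nearest to F3 and THBS1. Promoter sequences are RefSeq's (GRCh38.p14). 1 further gene is not reported here.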

Additional observations from a re-analysis of the deposited data

How the results depend on the processing

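Over all genes, 44 were called as reported (32 higher, 12 lower), 42 and 43 with pseudocounts of 0.1 and 0.5, 73 with median-ratio scaling and 73 with quantile normalization. There were 732 at a mean of at least 5 FPKM, 1745 by limma-voom on recovered reads, 5574 with library quality weights, 8 (4 higher, 4 lower) with the GC trend removed, 1 without a trend in the variance prior, and 0 without the filter on low values, where 4670 had an unadjusted p under 0.05. Leaving out 1 library gave 0 to 2351: 81 and 2351 without vehicle replicates 1 and 2, 1 without CBD replicate 3, and 0 by limma when vehicle replicate 3, or the first or second CBD library, was dropped (2943, 2594 and 2454 at an unadjusted p under 0.05). Of the set of 9, 2 were called as reported, 4 with library quality weights (THBD and TFPI2 added), 1 with the GC trend removed and 0 without the filter or without the trend in the variance prior (3 at an unadjusted p under 0.05 in each), and 0 to 2 with 1 library left out. Of the pathway genes 3 were called as reported, 10 at a mean of at least 5 FPKM, 18 by limma-voom, 26 with library quality weights, 1 with the GC trend removed, 0 without the filter (23 at an unadjusted p under 0.05), 0 without the variance trend (20), and 0 to 19 with 1 library left out, 19 being without vehicle replicate 2.

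The replicate numbers did not pair the libraries: deviations from the group means of same-numbered libraries correlated at -0.0027, 0.052 and 0.024 across genes, and not every library correlated best with its own number. With a replicate block 0 genes were called by limma (3676 at an unadjusted p under 0.05), 0 of the set (3) and 0 of the pathway genes (20).

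The direction of F3 and THBS1 was the same in all 17 alternatives. Both were chosen with this contrast known and their groups do not overlap. Leaving out a library could therefore not turn their sign, and the unchanged direction supports nothing further. Signs turned for some genes that were not called. With the GC trend removed THBD went to -0.00050, F12 to -0.12 and LMAN1 to 0.064. With median-ratio scaling PLAU went to 0.011, with quantile normalization CALR to -0.027, and with library quality weights PLAU to 0.022 and S100A10 to -0.010. With 1 library left out the log2 differences ran from -0.041 to 0.051 for PLAU, -0.19 to 0.018 for PROCR, -0.031 to 0.074 for F2R, -0.17 to 0.026 for F2RL1 and -0.012 to 0.13 for S100A10. Depth limits SERPINB2 most, at 16 to 37 fragments per library.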
